A study of Mus musculus with 12 samples.

Results

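The 10 genes described here encode aldehyde dehydrogenases (ALDH), and they were taken by symbol from the 46983 Ensembl genes of the expression table, where each symbol matched 1 row. They are Aldh1a1, Aldh1a3, Aldh1b1, Aldh2, Aldh3a1, Aldh3a2, Aldh3b1, Aldh3b2, Aldh7a1 and Aldh9a1. Aldehyde dehydrogenases oxidise reactive aldehydes to carboxylic acids with NAD or NADP as the electron acceptor. Some of them clear aldehydes that arise from lipid peroxidation or from ethanol, some make signals such as retinoic acid, and others act in the breakdown of amino acids and in carnitine synthesis. In skeletal muscle, high ALDH activity is known as a property by which myogenic progenitor cells can be sorted.

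RNA was sequenced from C2C12 cells, a mouse myoblast line that leaves the cell cycle and fuses into myotubes during differentiation. There were 4 groups of 3 libraries: wild type (WT) cells and PPARγ/+ cells, each on 0d and on 5d of differentiation. The PPARγ/+ cells carried the coding sequence of PPARγ, a nuclear receptor that drives adipocyte differentiation, in the PiggyBac vector PB-IP, and positive clones had been selected with puromycin. Their number and the promoter of the transgene are not given in the sources used here. The study calls the WT samples the PB-IP group and names the overexpression inducible, and the series record speaks of uninduced controls, so whether the WT cells carried the empty vector and how PPARγ was switched on is not settled. All groups shared the parental line and a growth medium with serum and LIF, and no separate differentiation medium is described. The study names the 3 libraries of a group biological replicates without saying whether they came from separate transfections, and p-values measure only the spread between these libraries.

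The overexpressed gene followed the labels. Pparg lay at 6.53 ± 1.27 FPKM (fragments per kilobase of transcript, scaled to the mapped fragments of the library; mean ± SD, n = 3, as for all group means) in WT cells on 0d and at 39.6 ± 10.1 FPKM in PPARγ/+ cells. On 5d the means were 3.75 ± 0.760 and 58.9 ± 29.3 FPKM. Each library held from 15557686 to 22013096 fragments on genes, and between 11391 and 11634 genes reached 1 FPKM. All 6 markers of the muscle lineage were detected (above 0 FPKM in any library) in every group, but their levels differed. On 0d they summed to 151 to 266 FPKM in WT libraries and 63.8 to 90.3 FPKM in PPARγ/+ libraries. On 5d the sums were 183 to 665 and 256 to 300 FPKM. Of the 6 adipocyte markers, 4 were detected in WT cells on each day, with a summed level of 0.107 FPKM or less in every WT library. In PPARγ/+ cells 5 were detected on 0d (sum 2.84 to 5.00 FPKM) and on 5d (13.0 to 55.3 FPKM), and Lep was at 0 throughout. A mean of 1 FPKM was reached by 0 of the 6 in WT cells, and by 2 on 0d and 3 on 5d in PPARγ/+ cells. On 0d the 6 markers of differentiated muscle summed to 103 FPKM in WT replicate 2, against 15.1 and 9.88 FPKM in WT replicates 1 and 3. The PPARγ/+ libraries on 0d held 7.20 to 23.4 FPKM. In the WT library of replicate 3 on 5d these markers summed to 896 FPKM, against 3973 and 3045 FPKM in the other WT libraries on 5d and 923 to 1086 FPKM in PPARγ/+ cells on 5d. Where leaving out that library changed a call of the 10 genes or an overlap of their libraries, both results are given. RNA of a culture does not show whether fewer cells of a kind or less RNA per cell lies behind a lower value, since these cannot be told apart in bulk samples.

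The promoter sequences of 3 of the genes are shown because their RNA followed different courses: Aldh3b1 and Aldh1a1 rose from 0d to 5d in both cell types, and Aldh3a2 varied least among the libraries. Each is the RefSeq sequence (GRCm38.p6) of the 250 bases before a transcription start, on the strand of the gene. Capitals mark CANNTG, the E-box letters that basic helix-loop-helix proteins such as MyoD bind, and AGGTCA, the half-site of many nuclear receptors, on either strand.
Aldh3b1, chr19:3929779-3930028, minus strand: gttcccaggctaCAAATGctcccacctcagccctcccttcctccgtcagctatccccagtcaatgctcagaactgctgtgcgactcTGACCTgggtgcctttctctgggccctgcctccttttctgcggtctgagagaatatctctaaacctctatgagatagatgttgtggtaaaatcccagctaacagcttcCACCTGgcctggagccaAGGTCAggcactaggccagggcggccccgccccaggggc
Aldh1a1, chr19:20601718-20601967, plus strand: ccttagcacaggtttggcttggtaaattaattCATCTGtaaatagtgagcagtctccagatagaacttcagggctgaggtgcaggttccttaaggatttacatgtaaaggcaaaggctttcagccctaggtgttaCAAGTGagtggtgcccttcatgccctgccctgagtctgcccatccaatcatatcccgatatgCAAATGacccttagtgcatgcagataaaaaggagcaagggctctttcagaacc
Aldh3a2, chr11:61267187-61267436, minus strand: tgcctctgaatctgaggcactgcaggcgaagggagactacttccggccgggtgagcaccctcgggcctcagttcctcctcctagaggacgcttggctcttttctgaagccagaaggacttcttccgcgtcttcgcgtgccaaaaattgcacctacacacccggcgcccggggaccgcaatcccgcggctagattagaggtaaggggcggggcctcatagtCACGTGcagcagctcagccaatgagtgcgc
The Aldh3b1 window held 2 matches to CANNTG and 2 to AGGTCA. The Aldh1a1 window, whose start lies 7 bases from that of the principal GENCODE transcript, held 3 matches to CANNTG and none to AGGTCA. The Aldh3a2 window held 1 match to CANNTG and none to AGGTCA. Of 32851 mouse promoter windows of this length, 66.2% held CANNTG and 14.0% held AGGTCA, so most promoters hold the first and a minority the second. The letters CAGCTG (13.0% of windows), which are a case of CANNTG, the PPAR-type direct repeat DR1 of the AGGTCA half-site (0.0335%), which holds AGGTCA at both ends, and the antioxidant response element core TGACNNNGC (10.2%) were also searched on both strands, and these 3 windows held none of them. Among the 6 windows found for 5 of the 10 genes, TGACNNNGC occurred in that of Aldh9a1 only. These matches describe the letters and not binding.

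The family was expressed over a wide range of levels. Aldh2 and Aldh3a1 were by far its most abundant transcripts, with means over the 12 libraries of 105 and 78.5 FPKM, which ranked 351st and 484th among the 18023 genes tested. Together they gave between 64.6% and 83.8% of the summed FPKM of the 10 genes in a library. That sum was 222 ± 13.0 FPKM in WT cells and 224 ± 21.7 FPKM in PPARγ/+ cells on 0d, and 238 ± 39.8 and 251 ± 5.96 FPKM on 5d. On 0d the order in WT cells was Aldh2, Aldh3a1, Aldh9a1, Aldh3a2, Aldh3b1, Aldh7a1, Aldh1a3, Aldh1a1, Aldh1b1 and Aldh3b2, and among neighbours only Aldh9a1 and Aldh3a2, and Aldh1b1 and Aldh3b2, overlapped between libraries. In PPARγ/+ cells on 0d Aldh7a1 stood above Aldh3b1, Aldh1a1 above Aldh1a3 and Aldh3b2 above Aldh1b1, where only the last of these neighbours did not overlap. On 5d Aldh3b1 held the third place in both cell types. In WT cells on 5d the libraries of 5 neighbouring pairs overlapped (Aldh2 and Aldh3a1, Aldh3a2 and Aldh9a1, Aldh1a1 and Aldh1a3, Aldh1a3 and Aldh3b2, Aldh3b2 and Aldh1b1), and in PPARγ/+ cells on 5d those of 1 pair did (Aldh9a1 and Aldh3a2).

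**Figure D1:**
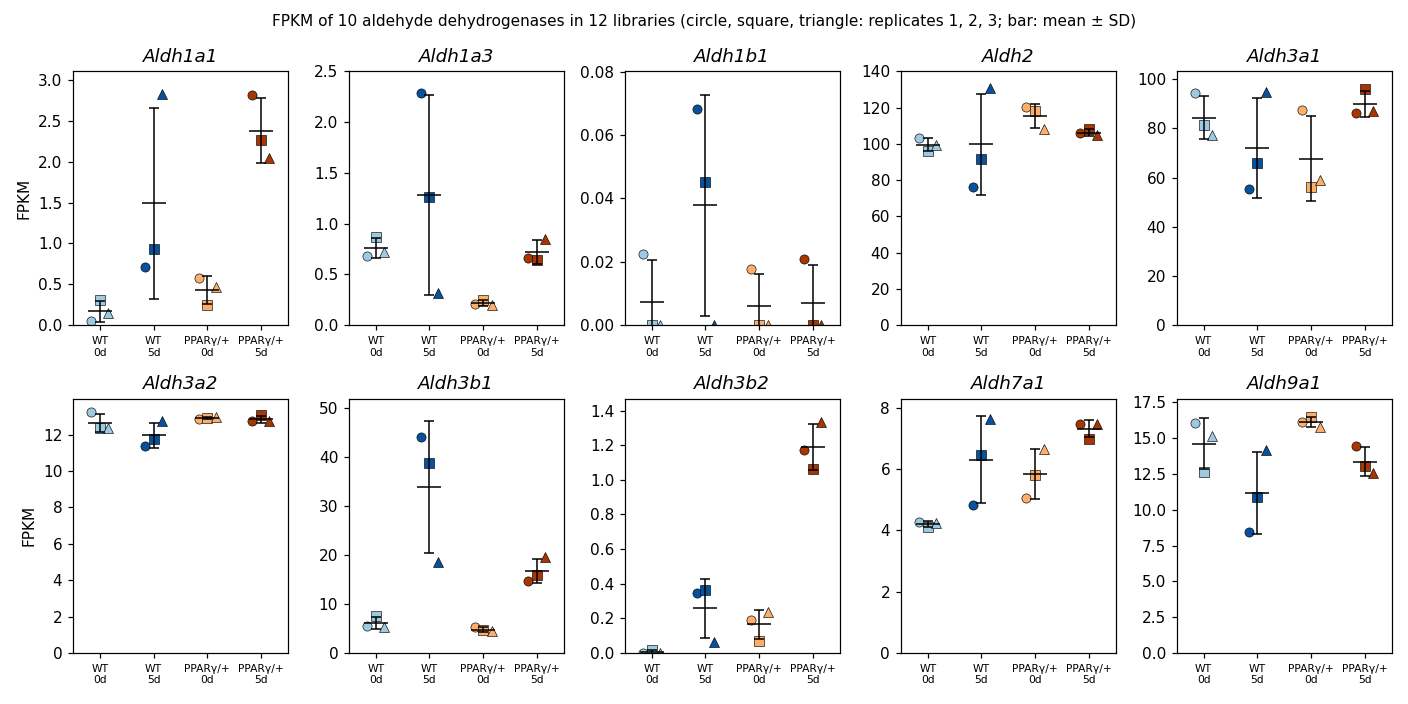
FPKM (linear axis from 0) of the 10 aldehyde dehydrogenases in each of the 12 libraries, by cell type and day, with circles, squares and triangles for replicates 1, 2 and 3 and bars for the mean ± SD. Aldh3b1 rises from 6.12 to 33.8 FPKM in WT cells and from 4.78 to 16.8 FPKM in PPARγ/+ cells, Aldh3a2 stays between 11.4 and 13.2 FPKM, and Aldh1b1 does not pass 0.0683 FPKM.

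From 0d to 5d, 3 of the 9 testable genes were called higher in WT cells (Aldh3b1, Aldh1a1 and Aldh3b2) and 4 in PPARγ/+ cells (the same 3 and Aldh1a3), and none was called lower. Smaller changes, such as a fall of Aldh9a1 in PPARγ/+ cells, are given with each gene. A gene was called here by the thresholds of the study, a change of 2-fold or more and a p-value of 0.05 or less before adjustment, with limma on log2(FPKM + 0.1), where 0.1 is the pseudocount. By this rule 16.5% of all genes tested were called in WT cells (8.94% higher, 7.53% lower) and 15.2% in PPARγ/+ cells (9.11% higher, 6.06% lower). The median log2 fold change of the 9 genes was 0.37 in WT cells, where that of all genes was -0.08, and 0.44 in PPARγ/+ cells, where that of all genes was -0.10. With a pseudocount of 1, the change of Aldh3b2 in both cell types (0.31 and 0.91) and that of Aldh1a3 in PPARγ/+ cells (0.49) no longer reached 2-fold. Aldh1b1 (ENSMUSG00000035561, chromosome 4, 45799022 to 45804604, plus strand), a mitochondrial relative of Aldh2, was the 1 gene that did not reach 0.1 FPKM in 3 libraries and was not tested. It had between 0 and 4 fragments per library, with a highest level of 0.0683 FPKM in WT cells on 5d.

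Aldh3b1 (ENSMUSG00000024885, chromosome 19, 3913491 to 3929808, minus strand; positions are those of the whole gene on GRCm38) encodes a membrane-associated enzyme that oxidises aldehydes from lipid peroxidation. Its WT libraries held 5.55, 7.53 and 5.28 FPKM on 0d and 44.2, 38.7 and 18.6 FPKM on 5d for replicates 1, 2 and 3. Its PPARγ/+ libraries held 5.29, 4.64 and 4.42 FPKM on 0d and 14.7, 15.9 and 19.6 FPKM on 5d. In both cell types every library on 5d lay above every library on 0d, and WT replicate 3 on 5d stood at the level of the PPARγ/+ libraries rather than with the other WT libraries. The mean rose 5.53-fold in WT cells (log2 fold change 2.37, SE 0.34, adjusted p = 0.00287, limma) and 3.502-fold in PPARγ/+ cells (1.78, SE 0.12, adjusted p = 8.53e-05, limma). Without WT replicate 3 on 5d the rise in WT cells was 2.76 on the log2 scale (adjusted p = 8.54e-04, limma). On 5d the mean was 33.8 ± 13.5 FPKM in WT cells and 16.8 ± 2.54 FPKM in PPARγ/+ cells, and this difference did not pass the test (log2 -0.93, 95% interval -1.52 to -0.33, unadjusted p = 0.00565, adjusted p = 0.128, limma). Without WT replicate 3 on 5d it did, at -1.31 (SE 0.16, adjusted p = 0.00103, limma).

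Aldh1a1 (ENSMUSG00000053279, chromosome 19, 20492715 to 20643465, plus strand) encodes a cytosolic enzyme that makes retinoic acid from retinaldehyde. It had few fragments, from 2 to 132 per library. Its WT libraries held 0.0502, 0.309 and 0.147 FPKM on 0d and 0.708, 0.934 and 2.82 FPKM on 5d. Its PPARγ/+ libraries held 0.579, 0.243 and 0.468 FPKM on 0d and 2.82, 2.27 and 2.04 FPKM on 5d. The days did not overlap in either cell type, and WT replicate 3, the lowest of its group for Aldh3b1, was here the highest and equal to the highest PPARγ/+ library. The mean rose 8.81-fold in WT cells (log2 2.44, SE 0.58, adjusted p = 0.0190, limma) and 5.53-fold in PPARγ/+ cells (log2 2.27, SE 0.28, adjusted p = 7.69e-04, limma). Without WT replicate 3 on 5d the rise in WT cells was 1.88 on the log2 scale (adjusted p = 0.0295, limma). Between the cell types the log2 difference was 1.04 on 0d (95% interval -0.02 to 2.10, adjusted p = 0.245, limma) and 0.87 on 5d (-0.20 to 1.93, adjusted p = 0.429, limma), so neither passed. Without WT replicate 3 the difference on 5d was 1.43 (adjusted p = 0.0457, limma), higher in PPARγ/+ cells.

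Aldh3b2 (ENSMUSG00000075296) encodes an enzyme found on lipid droplets, and its gene lies on chromosome 19 between 3972328 and 3981646 (plus strand), beside Aldh3b3 (3958645 to 3972103, plus strand) and close to Aldh3b1. It was at the floor in WT cells on 0d, with 0, 1 and 0 fragments, where a group was taken to be at the floor when no library had more than 3. On 5d the WT libraries held 19, 15 and 3 fragments, or 0.348, 0.363 and 0.0615 FPKM. Its PPARγ/+ libraries held 0.191, 0.0717 and 0.235 FPKM on 0d (10, 4 and 11 fragments) and 1.17, 1.06 and 1.33 FPKM on 5d (52, 49 and 53 fragments). The 3 PPARγ/+ libraries on 5d were thus the highest of all 12, and every PPARγ/+ library lay above every WT library of the same day. In WT cells the mean on 5d was at least 4.10-fold higher than the floor of 3 fragments per library on 0d, a bound that was not itself tested. The observed values of the 2 days differed at an adjusted p of 0.0323 (limma). Without WT replicate 3 on 5d their log2 difference was 2.11 (adjusted p = 0.00226, limma). In PPARγ/+ cells the mean rose 7.16-fold (log2 2.33, SE 0.28, adjusted p = 7.42e-04, limma). On 5d PPARγ/+ cells held 4.62-fold more of it than WT cells (log2 1.99, SE 0.39, adjusted p = 0.0326, limma), the 1 member called between the cell types. That call was lost without any 1 of WT replicates 1 and 2 and PPARγ/+ replicates 1, 2 and 3 on 5d (adjusted p from 0.0524 to 0.142, limma), and without WT replicate 3 it held at log2 1.495 (adjusted p = 0.0102, limma). It was also lost with a pseudocount of 1 (0.81, short of 2-fold) and with one of 0.01 (2.49, adjusted p = 0.135, limma). The summed adipocyte markers given above were likewise higher in every PPARγ/+ library than in every WT library, and their part in this difference was not tested. Of the stretches of 50 bases in the exons of Aldh3b2, 23.5% also occur in Aldh3b3, so fragments may have been split or dropped between both, and values of this gene are uncertain. The exons of Aldh3b1 shared 6.11% of such stretches with Aldh3b2.

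Aldh1a3 (ENSMUSG00000015134, chromosome 7, 66390890 to 66427517, minus strand) encodes the other retinaldehyde-oxidising member. Its WT libraries held 0.681, 0.868 and 0.721 FPKM on 0d and 2.28, 1.26 and 0.314 FPKM on 5d. Its PPARγ/+ libraries held 0.213, 0.249 and 0.198 FPKM on 0d and 0.658, 0.645 and 0.851 FPKM on 5d. On 0d every PPARγ/+ library lay below every WT library, and on 5d WT replicate 3 was below all others while WT replicates 1 and 2 were above all others. It rose 3.26-fold in PPARγ/+ cells (log2 1.35, SE 0.19, adjusted p = 0.00132, limma). In WT cells the log2 difference was 0.37 (95% interval -1.10 to 1.84, adjusted p = 0.673, limma). Without replicate 3 on 5d it was 1.08 (adjusted p = 0.0384, limma) and was called, and without replicate 1 it was -0.19. On 0d the difference between the cell types was -1.42 (SE 0.48, unadjusted p = 0.0126, adjusted p = 0.114, limma), which did not pass, whereas it passed with only the 6 libraries of the day (adjusted p = 0.0212, limma), without WT replicate 1 on 5d (adjusted p = 0.0404, limma) and without WT replicate 3 on 5d (adjusted p = 0.00366, limma). These fits leave the estimate as it is and take the spread from fewer libraries.

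**Figure D2:**
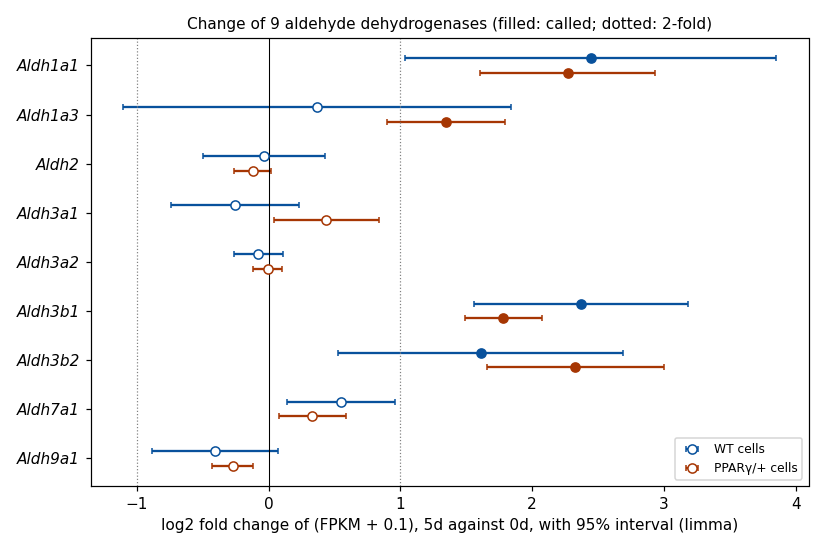
Log2 fold change of (FPKM + 0.1) from 0d to 5d for the 9 tested aldehyde dehydrogenases in WT and in PPARγ/+ cells, each with its 95% interval from limma, with filled points for called genes and dotted lines at 2-fold. Aldh1a1, Aldh3b1 and Aldh3b2 lie beyond 2-fold in both cell types, Aldh1a3 does so in PPARγ/+ cells at 1.35, and the intervals of Aldh2 and Aldh3a2 include 0 in both.

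Aldh2 (ENSMUSG00000029455, chromosome 5, 121566027 to 121593824, minus strand), the mitochondrial enzyme that clears acetaldehyde and 4-hydroxynonenal, was the most abundant member. In WT cells the libraries held 103, 96.2 and 99.2 FPKM on 0d and 76.5, 91.9 and 131 FPKM on 5d. In PPARγ/+ cells they held 121, 118 and 108 FPKM on 0d and 106, 108 and 105 FPKM on 5d. The widest spread was that of the WT libraries on 5d, which enclosed all other libraries. From 0d to 5d the log2 difference was -0.03 in WT cells (95% interval -0.50 to 0.43, adjusted p = 0.911, limma) and -0.12 in PPARγ/+ cells (-0.26 to 0.02, adjusted p = 0.140, limma), and under median-ratio scaling both estimates were above 0 (0.09 and 0.01). The change in WT cells was -0.25 without replicate 3 on 5d (adjusted p = 0.110, limma), whose removal left the days without overlap. On 5d PPARγ/+ cells were 0.13 higher than WT cells (adjusted p = 0.733, limma), and 0.34 higher without that library (adjusted p = 0.0255, limma), short of 2-fold. On 0d every PPARγ/+ library lay above every WT library, at a log2 difference of 0.21 that did not pass the test (adjusted p = 0.448, limma). Its exons overlap those of Gm42879 on the other strand over 130 bases.

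Aldh3a1 (ENSMUSG00000019102) encodes the cytosolic enzyme best known as a crystallin of the cornea. WT cells held 94.3, 81.4 and 77.4 FPKM on 0d and 55.5, 65.9 and 94.8 FPKM on 5d. PPARγ/+ cells held 87.6, 56.4 and 59.0 FPKM on 0d and 86.4, 96.2 and 87.3 FPKM on 5d. The groups overlapped in each of the 4 comparisons, and PPARγ/+ replicate 1 on 0d stood with the libraries of its cell type on 5d. The log2 difference was -0.26 in WT cells (SE 0.20, adjusted p = 0.362, limma) and 0.44 in PPARγ/+ cells (SE 0.17, unadjusted p = 0.0353, adjusted p = 0.0692, limma). In WT cells the difference was -0.47 without replicate 3 on 5d, short of 2-fold (adjusted p = 0.0341, limma), with the remaining libraries on 5d below those on 0d, and it was -0.089 without replicate 1 on 5d. The interaction, which is the change in PPARγ/+ minus that in WT cells, was 0.70 (95% interval 0.08 to 1.31, unadjusted p = 0.0299, adjusted p = 0.349, limma) and did not pass, nor did it without WT replicate 3 (0.91, adjusted p = 0.0665, limma). The ratio of Aldh3a1 to Aldh2 lay between 0.717 and 0.726 in the 3 WT libraries on 5d, although each gene differed by more than 1.7-fold among them, and between 0.477 and 0.727 in PPARγ/+ cells on 0d.

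Aldh3a2 (ENSMUSG00000010025), the fatty aldehyde dehydrogenase whose loss causes Sjögren-Larsson syndrome in humans, varied least. Its highest library exceeded the lowest 1.16-fold, with 12.6 ± 0.502 and 11.96 ± 0.697 FPKM in WT cells and 12.9 ± 0.0710 and 12.9 ± 0.186 FPKM in PPARγ/+ cells on 0d and 5d. The 95% intervals of its log2 changes were -0.27 to 0.11 in WT and -0.12 to 0.10 in PPARγ/+ cells. It lies next to Aldh3a1 on chromosome 11 (61223417 to 61267464, minus strand, against 61207537 to 61218421, plus strand), and their exons shared none of the stretches of 50 bases.

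Aldh7a1 (ENSMUSG00000053644, chromosome 18, 56509687 to 56572951, minus strand), known as antiquitin, acts in lysine breakdown. In the WT libraries it lay at 4.27, 4.10 and 4.25 FPKM on 0d and 4.82, 6.46 and 7.64 FPKM on 5d. In the PPARγ/+ libraries it lay at 5.04, 5.79 and 6.66 FPKM on 0d and 7.47, 6.98 and 7.48 FPKM on 5d. The days did not overlap in either cell type, and WT cells on 0d had the lowest 3 of all 12 libraries. The log2 differences of 0.55 in WT cells (adjusted p = 0.0462, limma) and 0.33 in PPARγ/+ cells (adjusted p = 0.0408, limma) fell short of 2-fold, and without WT replicate 3 on 5d that in WT cells was 0.40 (adjusted p = 0.0848, limma; 0.136 without replicate 2). On 0d PPARγ/+ cells differed from WT cells by 0.45 (unadjusted p = 0.0108, adjusted p = 0.105, limma), with an adjusted p of 0.0399 without that library. The exons of Aldh7a1 overlap 300 bases of Phax and 176 bases of a pseudogene on the other strand, and the library kit did not mark strand.

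Aldh9a1 (ENSMUSG00000026687, chromosome 1, 167349991 to 167368532, plus strand) makes a precursor of carnitine. Its WT libraries held 16.1, 12.7 and 15.1 FPKM on 0d and 8.44, 10.9 and 14.2 FPKM on 5d. Its PPARγ/+ libraries held 16.1, 16.5 and 15.8 FPKM on 0d and 14.5, 13.0 and 12.6 FPKM on 5d. In PPARγ/+ cells each library on 5d lay below each library on 0d, at a log2 difference of -0.27 (SE 0.07, adjusted p = 0.0136, limma) that was short of 2-fold. In WT cells the days overlapped (-0.41, 95% interval -0.89 to 0.07, adjusted p = 0.154, limma). They did not once WT replicate 3 on 5d was left out, at -0.60 (adjusted p = 0.0348, limma). The difference between the cell types on 5d was 0.29 (adjusted p = 0.419, limma) and, without that library, 0.47 (adjusted p = 0.0329, limma), short of 2-fold.

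Libraries of the family that did not overlap between days were counted as well. In WT cells 4 of the 10 genes lay higher on 5d without overlap (Aldh1a1, Aldh3b1, Aldh3b2 and Aldh7a1) and 0 lower, against 20.2% and 30.9% of all genes tested (51.1% in either direction). When WT replicate 3 on 5d was left out, the count was 5 higher, with Aldh1a3 added, and 4 lower (Aldh2, Aldh3a1, Aldh3a2 and Aldh9a1), against 24.1% and 37.5% of all genes (61.6% in either direction). In PPARγ/+ cells 5 lay higher (Aldh1a1, Aldh1a3, Aldh3b1, Aldh3b2 and Aldh7a1) and 1 lower (Aldh9a1), against 23.8% and 34.4% of all genes (58.1% in either direction).

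Between the cell types few members passed. Here a call needed a limma p-value of 0.05 or less after Benjamini-Hochberg adjustment over all genes, and 2-fold or more. On 0d 0 of the 9 genes were called, where 1.96% of all genes were (0.571% higher, 1.39% lower), and 3 had an unadjusted p-value under 0.05 (Aldh1a3, Aldh3b2 and Aldh7a1). On 5d 1 was called, Aldh3b2, where 1.1% of all genes were (0.571% higher, 0.533% lower). Without overlap, PPARγ/+ cells lay above WT cells on 0d for Aldh2, Aldh3b2 and Aldh7a1 and below them for Aldh1a3, against 13.7% and 13.1% of all genes (26.8% in either direction). On 5d they lay above for Aldh3a2 and Aldh3b2 and below for none, against 10.2% and 8.31% of all genes (18.5% in either direction). With WT replicate 3 on 5d left out they lay above for 7 genes (all tested but Aldh1a3 and Aldh3b1) and below for these 2, against 27.6% and 19.2% of all genes (46.8% in either direction). The interaction was called for 0 of the 9 genes, where 0.76% of all genes passed an adjusted p of 0.05 (0.583% higher, 0.178% lower), and 1 gene, Aldh3a1, had an unadjusted p-value under 0.05 (limma). For Aldh3b1 the interaction was -0.59 (95% interval -1.43 to 0.25, adjusted p = 0.601, limma). For Aldh1a3 it was 0.98 (-0.51 to 2.46, adjusted p = 0.628, limma). The intervals of both thus include changes that are equal in the cell types and changes that differ more than 2-fold.

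Leaving out WT replicate 3 on 5d changed which members passed. Without it 4 members were called from 0d to 5d in WT cells (17.0% of all genes), 2 between the cell types on 0d (2.72%), 4 on 5d (4.42%) and 1 in the interaction (2.92%). On 5d the calls were then Aldh1a1 and Aldh3b2, higher in PPARγ/+ cells, and Aldh1a3 and Aldh3b1, lower in them. On 0d they were Aldh3b2 (log2 1.27, adjusted p = 0.0133, limma) and Aldh1a3. The member called in the interaction was Aldh3b1 (log2 -0.98, adjusted p = 0.0441, limma), which rose less in PPARγ/+ cells. The markers of differentiated muscle also differed between the WT libraries on 5d. Myog, the myogenic factor that marks the onset of differentiation, lay at 271, 215 and 90.0 FPKM in the WT libraries on 5d and at 78.8, 85.9 and 90.3 FPKM in the PPARγ/+ libraries. The WT library with the lowest Myog on 5d had the lowest Aldh3b1, Aldh1a3 and Aldh3b2 of its group and the highest Aldh1a1, Aldh2, Aldh3a1, Aldh3a2, Aldh7a1 and Aldh9a1. The part of the differentiation markers in the differences between the cell types was not tested.

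**Figure D3:**
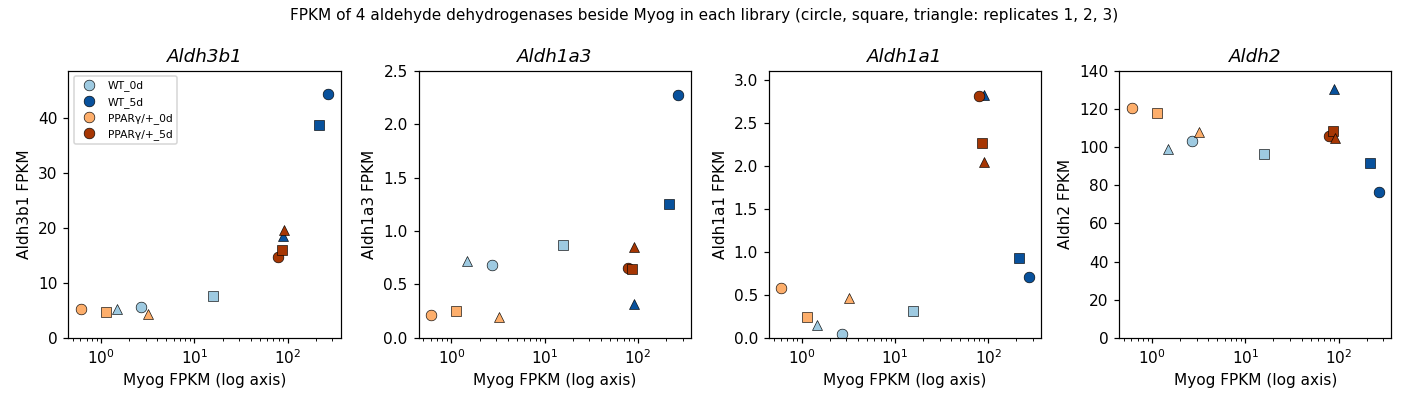
FPKM of Aldh3b1, Aldh1a3, Aldh1a1 and Aldh2 (linear axis from 0) against that of Myog (log axis) in the 12 libraries, with colours for the 4 groups and circles, squares and triangles for replicates 1, 2 and 3. The WT library of replicate 3 on 5d, at 90.0 FPKM of Myog, lies among the PPARγ/+ libraries on 5d for Aldh3b1 (18.6 FPKM), level with the highest of them for Aldh1a1 (2.82 FPKM), below them for Aldh1a3 (0.314 FPKM) and above them for Aldh2 (131 FPKM).

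Genes whose pattern over the 12 libraries was most like that of a member were found by Pearson's r of log2(FPKM + 0.1) among 11681 genes with a mean of at least 1 FPKM, as a description in which the libraries share their groups. For Aldh3b1 they included Tceal7 (r = 0.995) and Hspb7 (0.994), a small heat shock protein of heart and muscle. The mean of Hspb7 was 0.239 and 18.6 FPKM in WT cells on 0d and 5d and 0.124 and 3.06 FPKM in PPARγ/+ cells. For Aldh7a1 they were Lyz2 (0.973), a lysozyme, Igtp (0.971), an interferon-induced GTPase, and Bbs2 (0.970), a subunit of the BBSome. For Aldh3a1 they were Trub1 (0.816), Ptgir (0.811), the prostacyclin receptor, and Add2 (0.799), so no gene followed Aldh3a1 as closely.

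Of the 11 other genes of the superfamily, 8 could be tested, and Aldh1a2, Aldh1a7 and Aldh8a1 had at most 4 fragments per library. From 0d to 5d, 3 of the 8 were called higher and 1 lower in WT cells, and 2 higher and 0 lower in PPARγ/+ cells. Among all genes tested, 8.94% were called higher and 7.53% lower in WT cells, and 9.11% and 6.06% in PPARγ/+ cells. The median log2 change of the 8 was -0.04 in WT and -0.19 in PPARγ/+ cells, where those of all genes were -0.08 and -0.10. Aldh3b3, the neighbour of Aldh3b2, rose in both (log2 2.62, adjusted p = 0.0108, and 2.49, adjusted p = 2.27e-04, limma). It was at the floor on 0d in both cell types, so that the means on 5d were at least 20.0-fold and 16.1-fold higher than the floor. All 3 genes of the Aldh3b subfamily thus rose in both cell types, with the limit that Aldh3b2 and Aldh3b3 share sequence. Aldh1l1, a folate enzyme, rose as well (1.96, adjusted p = 0.00582, and 1.67, adjusted p = 0.00386, limma). Aldh6a1, of valine breakdown, rose in WT cells (1.03, adjusted p = 0.00470, limma; 0.87, short of 2-fold, without WT replicate 3 on 5d) and changed by 0.80 in PPARγ/+ cells, short of 2-fold, and Aldh16a1 fell in WT cells (-1.07, adjusted p = 0.00193, limma) and changed by -0.77 in PPARγ/+ cells. The interaction called 0 of the 8. The highest mean of the list was that of Aldh18a1, an enzyme of proline synthesis, at 19.9 FPKM, followed by Aldh6a1 (7.85 FPKM) and Aldh1l2 (5.13 FPKM). No gene of the list was called between the cell types, where Aldh6a1 was 0.66 higher on 0d on the log2 scale in PPARγ/+ cells, short of 2-fold (adjusted p = 0.0176, limma). Exons of Aldh1l1, Aldh1l2, Aldh4a1, Aldh5a1, Aldh6a1 and Aldh16a1 overlap those of other genes.

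**Figure D4:**
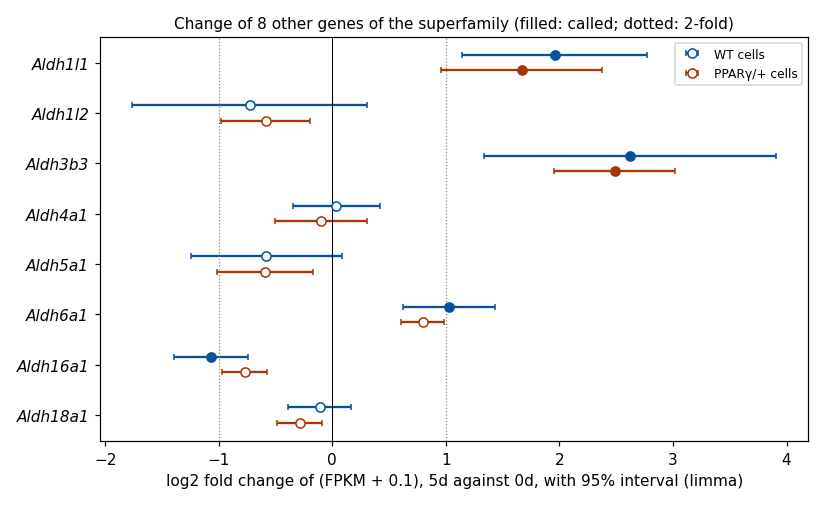
Log2 fold change of (FPKM + 0.1) from 0d to 5d for the 8 other tested genes of the ALDH superfamily in WT and PPARγ/+ cells, with 95% intervals from limma, filled points for called genes and dotted lines at 2-fold. Aldh3b3 and Aldh1l1 are called in both cell types, and Aldh16a1 lies below 0 in both, at -1.07 and -0.77.

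Enzymes and binding proteins that handle retinoids stand beside Aldh1a1 and Aldh1a3 in the pathway. Of 21 such genes 20 were tested, and from 0d to 5d 5 were called higher and 0 lower in WT cells. In PPARγ/+ cells 6 were called higher and 0 lower. The median log2 changes were 0.58 and 0.78. Among all genes tested, 8.94% were called higher and 7.53% lower in WT cells, with a median of -0.08. In PPARγ/+ cells the shares were 9.11% and 6.06%, with a median of -0.10. Rdh5, a retinol dehydrogenase (1.40 and 1.52), Dhrs3, which reduces retinaldehyde back to retinol (1.52 and 1.08), and Cyp26a1, which degrades retinoic acid (1.90 and 1.31), rose in both cell types (adjusted p of 0.0133 or less, limma). Crabp2, which carries retinoic acid to its receptors, had the highest mean of the list at 61.9 FPKM, ahead of the receptor Rarg at 51.0 FPKM and Dhrs3 at 13.6 FPKM. It rose in WT cells (1.17, adjusted p = 0.00156, limma) and on 5d PPARγ/+ cells held less of it than WT cells (-1.15, adjusted p = 0.0426, limma), at 50.3 ± 13.3 against 110 ± 17.4 FPKM. Crabp1 (1.53, adjusted p = 0.0144, limma) and Lrat (1.52, adjusted p = 0.00337, limma), which stores retinol as esters, rose in PPARγ/+ cells from means of 0.0319 and 0.0143 FPKM, so that both fitted values depend on the 0.1 added. In these cells Crabp1 was at the floor on 0d, with 0 to 2 fragments per library, and had only 3 to 6 on 5d. Lrat had 0 to 5 and 19 to 28 fragments. Stra6, the membrane receptor for retinol-binding protein, was lower in PPARγ/+ cells on 0d (-2.13, adjusted p = 0.0137, limma), at 0.0991 ± 0.0530 against 0.779 ± 0.283 FPKM. The interaction called 0 of the 20. Leaving out WT replicate 3 on 5d, 3 were called between the cell types on 5d in place of Crabp2 alone, with Lrat (1.26, adjusted p = 0.0207, limma) and Dhrs9 (1.69, adjusted p = 0.00530, limma) added. Of all genes, 4.42% were then called in that comparison.

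A further list held 23 enzymes that make or clear aldehydes or handle related amines and amino acids, of which 22 were tested. Some of them, such as Hdc, Sat1 and Ddo, do not themselves make or clear an aldehyde, and the counts cover the whole list. From 0d to 5d 5 were called higher and 0 lower in WT cells. In PPARγ/+ cells 7 were called higher and 0 lower. The median log2 changes were 0.16 and 0.62. Among all genes tested, 8.94% were called higher and 7.53% lower in WT cells, with a median of -0.08. In PPARγ/+ cells the shares were 9.11% and 6.06%, with a median of -0.10. Adh1, an alcohol dehydrogenase that supplies substrates to the family by oxidising ethanol and retinol, rose most of the list. Its level in WT cells was 1.34, 2.01 and 1.10 FPKM on 0d and 14.5, 20.3 and 28.3 FPKM on 5d. Its level in PPARγ/+ cells was 4.26, 4.86 and 5.21 FPKM on 0d and 39.9, 42.8 and 44.8 FPKM on 5d. None of the 4 groups overlapped another, and it was higher in PPARγ/+ cells on 0d (log2 1.66, adjusted p = 0.00352, limma) and on 5d (1.06, adjusted p = 0.0494, limma). Adh7, of the same family (1.24 and 1.31), Aoc3, which makes aldehydes from primary amines (2.54 and 3.02), Maob (1.26 and 1.47) and Ddo, which oxidises D-aspartate (1.87 and 1.56), rose in both cell types (adjusted p of 0.0139 or less, limma), with Maob at the floor on 0d in both. Aox1, an aldehyde oxidase (1.23), and Hdc, which makes histamine (1.40), rose in PPARγ/+ cells. Maoa, a monoamine oxidase of mitochondria, was more abundant on 5d in PPARγ/+ cells than in WT cells (1.21, adjusted p = 0.0171, limma), at 58.0 ± 5.43 against 26.1 ± 10.5 FPKM. The highest means were those of Akr1a1 (148 FPKM), Akr1b8 (57.7 FPKM) and Adh7 (47.9 FPKM), and the interaction called 0 of the 22. When WT replicate 3 on 5d was left out it called 3, Maoa (1.16, adjusted p = 0.00390, limma), Aox1 (1.08, adjusted p = 0.0154, limma) and Sat1 (0.48, adjusted p = 0.0316, limma), and 4 were called between the cell types on 5d, Adh1, Maoa, Adh7 (1.15, adjusted p = 0.00116, limma) and Aoc3 (1.92, adjusted p = 0.0433, limma). Hdc was then also called on 0d (-1.47, adjusted p = 0.0219, limma). Without that library 2.92% of all genes were called in the interaction, 4.42% between the cell types on 5d and 2.72% on 0d.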

How the data were processed

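RNA of 12 libraries was sequenced from both fragment ends on an Illumina HiSeq. Before deposit the authors used Trim Galore for trimming, STAR for alignment and HTSeq for counting on genes, and they deposited the FPKM of each gene. The methods of the study name GRCm38 with Ensembl annotation, whereas the submitters' processing notes name mm9. The annotated exonic lengths of GRCm38 fitted most genes, and positions given here are those of GENCODE on GRCm38. Their other deposited table, log2(FPKM + 1) of the same values, was not used. No library column was left without a sample (0 columns), and any 2 libraries differed at 21594 genes or more.

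Fragments were recovered as FPKM times exonic length times the mapped read pairs per library listed by the study. Of 27138 expressed genes, 21224 gave whole numbers (within 0.01) with the annotated length and 5913 with an inferred length, Aldh1a1, Aldh1a3, Aldh3b1 and Aldh3b2 among them, which gives whole numbers by construction. The inferred length was the smallest that did so. Fragments of these genes can thus be too low, and genes of very low FPKM can come out at 0. For Aldh1a1 the inferred length was 2053 bases and the annotated one 4937. The recovered fragments served for depths and for the floor of 3 fragments per library, which cover counting error only.

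limma (version 3.58.1, R 4.3.3, empirical Bayes with a trend) was run on log2(FPKM + 0.1) of the 18023 genes with at least 0.1 FPKM in at least 3 libraries. The 0.1 draws changes of low genes toward 0. Days were compared within each cell type on its own 6 libraries, and cell types and the interaction in 1 fit of all 12. Adjusted p-values are Benjamini-Hochberg values over all genes tested. On simulated data with log2 changes of 1.5 and 2, 99% and 99% of changed genes were called between days in WT cells (17979 genes), 100% and 100% in PPARγ/+ cells (17981), 99% and 99% between cell types on 0d (17939), 95% and 98% on 5d (17951), and 81% and 94% in the interaction (17961). Only genes with a mean of at least 1 FPKM were changed there, and every library was given the same spread. These shares thus do not hold for lower genes such as Aldh1a3 and Aldh3b2. They also do not cover the wider spread of the WT libraries on 5d, so they do not measure what the tests of the members could miss.

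The genes and the lists were chosen with earlier results of these data known. All 10 members are named, other list genes where called in any comparison or among the 3 highest means of a list, and similar genes for the 3 members with the smallest p-value of the interaction among those with a mean of at least 1 FPKM. Markers were 6 genes each of muscle lineage (Myod1, Myf5, Des, Cdh15, Pax7, Msc), differentiated muscle (Myog, Myh3, Ckm, Acta1, Tnnt3, Mymk) and adipocytes (Adipoq, Fabp4, Plin1, Cidec, Retn, Lep), and 4 each of immune, endothelial and epithelial cells. The immune sum (2.07 to 5.13 FPKM) was carried by Cd68 and the epithelial sum (6.77 to 36.9 FPKM) by Krt14, and the endothelial sum was 0.249 FPKM or less. Alternatives were other pseudocounts, filters, scalings and fits, a replicate block and each library left out in turn. Tables and plots were made with Python 3.11.15, numpy 2.4.6, pandas 2.3.3 and matplotlib 3.10.9. Some genes that the naming rule would list are not reported here.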

Additional observations from a re-analysis of the deposited data

How the results depend on the processing

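Called members numbered 3 (WT) and 4 (PPARγ/+) between days, 0 (0d) and 1 (5d) for the contrast of cell types, and 0 for the interaction. Leaving out 1 library at a time gave 3 to 4, 4 to 4, 0 to 2, 0 to 4 and 0 to 1. Between days a pseudocount of 1 gave 2 and 2, because the fold of low genes shrinks by construction, and the filter at 1 FPKM, which leaves 8 members to test, gave 2 and 3. On 0d it was 1 with a pseudocount of 0.01 or with the 6 libraries of the day. On 5d it was 0 with a pseudocount of 1 or 0.01, without the filter, with the filter at 1 FPKM, with the 6 libraries of the day and with the replicate block. Array weights, whose estimate stopped before it converged, gave 2 in the interaction, Aldh3a1 (0.87, adjusted p = 0.0106, limma) and Aldh3b1 (-0.84, adjusted p = 0.0370, limma). With these weights 2070 of all 18023 genes were called in the interaction, against 137 in the main fit, so the 2 calls are not particular to the members. The causes of the changes in these counts were not tested.

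Some members that were not called changed direction. Under median-ratio scaling, which moved the median of all genes from -0.08 to 0.02 in WT and from -0.10 to 0.02 in PPARγ/+ cells, the change between days was 0.094 and 0.010 for Aldh2 and 0.048 and 0.12 for Aldh3a2, and the difference of Aldh3a2 on 0d was -0.0066. With 1 library left out at a time, the change in WT cells ranged from -0.19 to 1.08 for Aldh1a3 and from -0.25 to 0.14 for Aldh2, the contrast of cell types on 5d from -1.14 to 0.12 for Aldh1a3 and from -0.044 to 0.34 for Aldh2, and the interaction from -0.54 to 0.39 for Aldh1a1, from -0.26 to 0.13 for Aldh2 and from -0.048 to 0.32 for Aldh9a1. WT replicates 1 and 3 on 5d gave most of these limits. The interaction of Aldh1a1 was 0.24 with a pseudocount of 1 and 0.33 with array weights, that of Aldh2 was 0.018 with array weights, and that of Aldh3b2, which rests on a group at the floor, was -0.996 with a pseudocount of 0.01. Among all values of single members under an alternative, 714 kept direction and call, 12 gained and 15 lost the call, and 19 changed direction. Samples of the same replicate number did not deviate together (correlations from -0.068 to 0.083 in 12 pairs). No pairing by number was thus seen, which does not show whether such libraries were prepared together. With the number as a replicate block the count on 5d was 0, since Aldh3b2 was lost (adjusted p = 0.0621), and the block changed no other call of a member. Over all genes, a pseudocount of 1 lowered the calls between days from 2970 to 1441 in WT and from 2735 to 1241 in PPARγ/+ cells. Few fragments limit Aldh1a1, Aldh3b2 and Aldh1b1 most.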
